A study of Mus musculus with 4 samples.

Results

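For each gene, the change after lipopolysaccharide (LPS) on arrays labelled Bid–/– was compared with the change on wild-type (WT) arrays. RNA of mouse microglia was hybridised to 4 Affymetrix Mouse Gene 1.0 ST arrays, 1 for each group: WT without treatment, WT after 3 h with LPS, Bid–/– without treatment and Bid–/– after 3 h with LPS. Only the WT arrays carry a strain label, C57Bl. For the Bid–/– arrays the sources used here give neither strain, sex nor the number of animals or cultures, and they give no LPS dose for either label. The difference of response is the LPS minus control difference on the arrays labelled Bid–/– minus that on the WT arrays, in log2 units, so -1 stands for a change 2-fold lower on the arrays labelled Bid–/–. It also equals the difference between labels with LPS minus the difference between labels without it. Of 28944 probe sets, 21789 carry a single gene symbol, and these gave 19938 genes. Of those, 11326 reached a floor of 4.26 log2 units on at least 1 array and were counted.

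LPS is a cell wall component of Gram-negative bacteria. Toll-like receptor 4 (TLR4) recognises it on microglia, the resident macrophages of the brain, and passes the signal through NF-kB, MAP kinase and interferon regulatory factor pathways to genes for cytokines, chemokines and their feedback inhibitors. Bid is a BH3-only member of the Bcl-2 family; caspase-8 cleaves it, and the fragment carries death receptor signals to mitochondria.

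Each group was 1 array, so no difference has a replicate check, no p-value was computed, and culture, animal or array effects cannot be told apart from genotype or LPS. Values are log2 expression, given in a fixed order, first the WT control and WT LPS arrays and then the control and LPS arrays labelled Bid–/–. Array medians lay between 4.24 and 4.28. Bid, whose deletion the labels state, read 5.69, 5.02, 5.53 and 5.97. The array labelled Bid–/– was thus slightly lower than WT without LPS and 0.95 higher with it, which goes against the label, and the difference of response was 1.11. The sources used here do not place the probes relative to the deleted part, so this reading may check nothing, and the arrays are called "labelled Bid–/–" throughout. Of 10 microglia markers 9 were measured and 7 reached the floor, with Siglech and Gpr34 below it. The Y-linked genes Eif2s3y and Uty were 1.00 and 0.91 higher on the labelled control array than on the WT control array, and the strain-variable gene Nnt was 0.81 lower on it (-0.81). Differences between labels that hold with and without LPS cancel in the difference of response: Eif2s3y had -0.05 and Nnt 0.02, while Uty had 0.70.

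The response was 2-fold or more lower on the arrays labelled Bid–/– for 71 genes and 2-fold or more higher for 18. These are 0.627% and 0.159% of the genes at the floor. The lowest values belonged to Timp1, Mmp3, Tagln, the small non-coding RNA gene Rnu3a and Dcn. Rnu3a reached the floor on the WT LPS array alone, so its passing the floor and its lower response are not separate facts. Timp1, Mmp3 and Dcn act in the extracellular matrix and Tagln in the contractile cytoskeleton. The lower genes also held the chemokines Cxcl3, Cxcl5, Cxcl1 and Cxcl13. The higher genes held the transcriptional regulator Nlrc5, the iron exporter Slc40a1 and 3 microRNA genes. Over all genes at the floor the responses were centred on one another: 5563 genes (49.1%) lay below 0, 5594 (49.4%) above 0 and 169 at 0, with a median of 0.0 and a central 95% from -0.76 to 0.63. The extremes were -2.98 and 1.71. With LPS, 267 genes (2.36%) in WT and 297 (2.62%) under the Bid–/– label were 2-fold or more higher, while 231 (2.04%) and 181 (1.6%) were 2-fold or more lower.

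**Figure D1:**
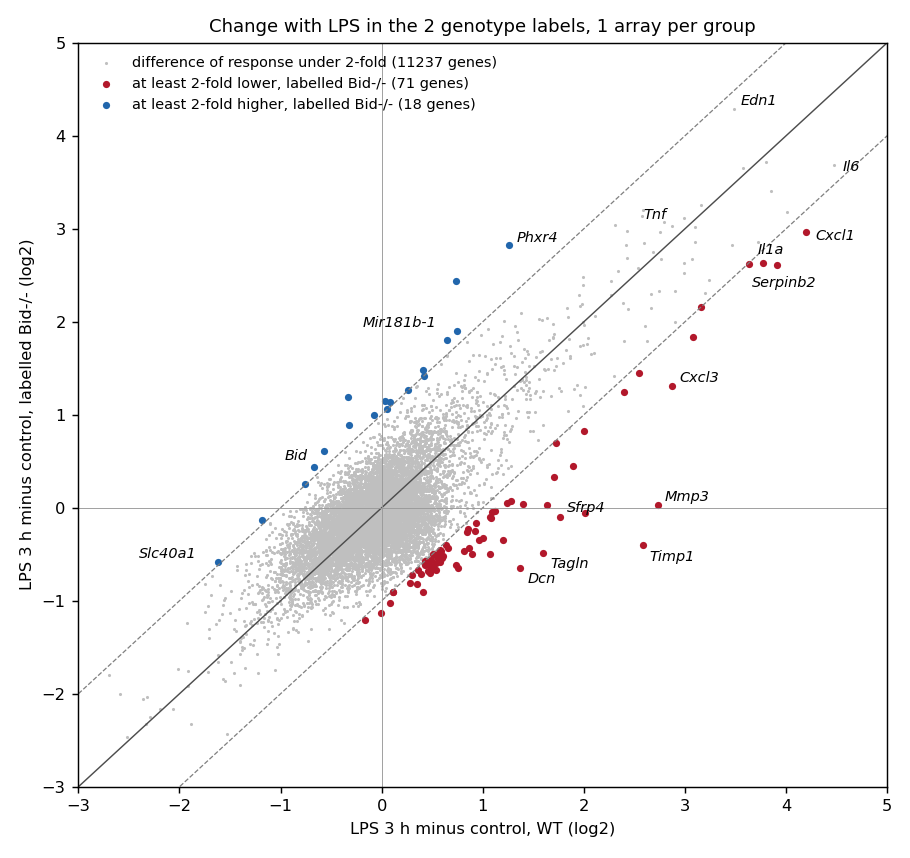
LPS minus control (log2) on the WT arrays (horizontal axis) against the same on the arrays labelled Bid–/– (vertical axis), 1 point for each of 11326 genes at the floor. Solid line, equal responses; outside the dashed lines lie the 71 genes with a response 2-fold or more lower and the 18 with one 2-fold or more higher on the arrays labelled Bid–/–. Timp1 and Mmp3 lie farthest below the line. Of the 15 genes with a mean response of 3 or more, at the upper right, 11 lie below the line, Il1a among them, and 4 above it.

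Of the 71 lower genes, 33 belong to a gene list used here and 38 to none. By response, 38 changed less than 2-fold under either label. A 2-fold or larger increase with LPS under both labels was seen for 9 of them, and in WT alone for 21. A further 3, Lage3, Fcgr3 and 2610524H06Rik, were 2-fold or more lower on the arrays labelled Bid–/– alone. In 51 of the 71 the 2 responses had opposite signs. For 45 of the 71 the mean of the 2 responses lay between -0.5 and 0.5. With such a mean, responses that differ 2-fold or more have opposite signs by definition. Most of the count of 51 thus follows from the 2-fold limit. Of the 18 higher genes, 11 had a 2-fold or larger increase with LPS under the Bid–/– label alone, and Phxr4 had one under both labels. Styx, a catalytically inactive phosphatase relative, and Slc40a1 were 2-fold or more lower in WT alone, and 4 genes changed less than 2-fold under either label.

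The same difference of response can come from the control arrays or from the LPS arrays, and the 71 lower genes split between these. At 1.5-fold, the labels were apart on the control arrays alone for 27 genes, all 27 higher on the labelled Bid–/– control array. They were apart on the LPS arrays alone for 38 genes, all 38 lower on the labelled Bid–/– LPS array. Both directions follow from the 2-fold and 1.5-fold limits and are not separate results. For 5 genes (Timp1, Tagln, n-R5s136, S100a6 and Cnn3) the labels were apart on both pairs, and for Plk1, a mitotic kinase, on neither. Of the 27 genes set apart on the control arrays, 9 belong to the protease, matrix, contractile or S100 lists and 6 to the inflammatory lists, and none codes for a ribosomal, respiratory chain or proteasome subunit. Of the 38 set apart on the LPS arrays, 3 belong to the first of these groups of lists, 2 to the second and 5 code for such subunits. The 3 groups hold 86 (0.759%), 112 (0.989%) and 199 (1.76%) of all genes at the floor. The split rests on the 1.5-fold limit: at 2-fold, 18 genes were apart on the control arrays alone, 23 on the LPS arrays alone, 1 on both and 29 on neither. Over all genes at the floor, 159 (1.4%) were 1.5-fold or more higher and 48 (0.424%) lower on the labelled Bid–/– control array than on the WT control array. On the LPS arrays the counts were 521 (4.6%) higher and 670 (5.92%) lower. Among the 18 higher genes, 15 were set apart on the LPS arrays alone, Fnbp1l and Mir181b-1 on the control arrays alone, and Mir181a-1 on neither.

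**Figure D2:**
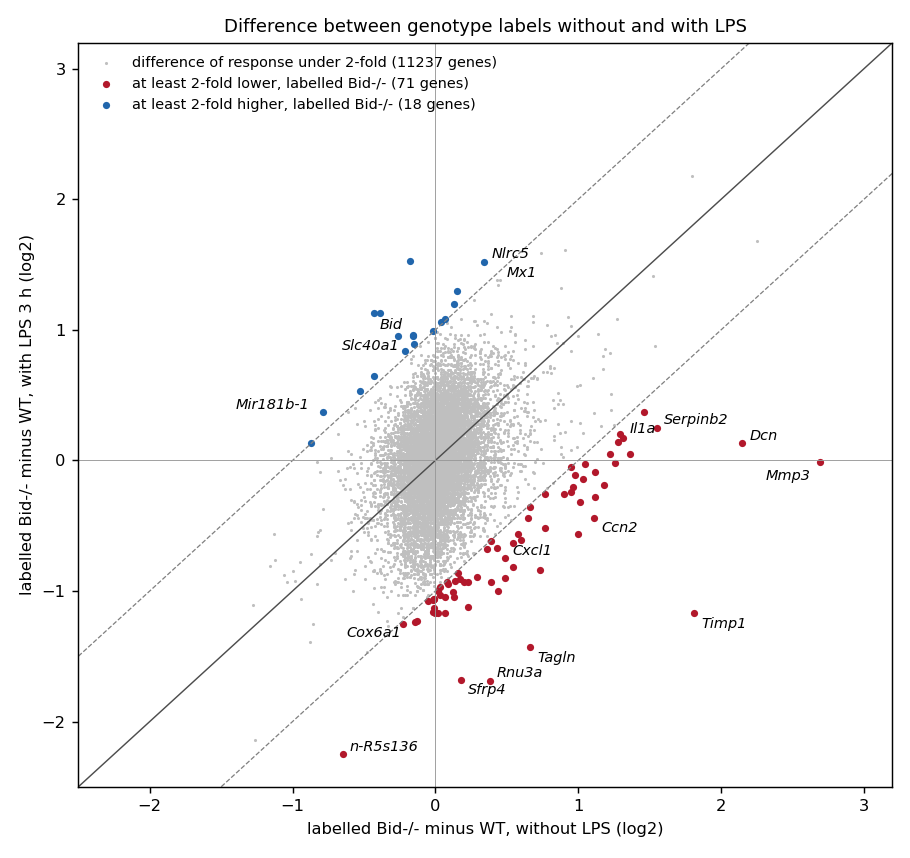
Difference between labels without LPS (horizontal axis) against that with LPS (vertical axis), both as labelled Bid–/– minus WT in log2 units, for genes at the floor. The vertical distance from the solid line is the difference of response; genes right of the centre and near the horizontal zero line, such as Mmp3, were set apart on the control arrays, and genes low and near the vertical zero line on the LPS arrays.

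Genes of the extracellular matrix and its proteases carried the lowest values. Timp1, a secreted inhibitor of matrix metalloproteinases, read 4.22, 6.80, 6.03 and 5.63, a difference of response of -2.98. It was lowest on the WT control array and highest on the WT LPS array, and both labelled arrays lay between. Mmp3, the metalloproteinase stromelysin 1, read 4.85, 7.58, 7.54 and 7.57 (-2.70): 3 arrays lay between 7.54 and 7.58 and the WT control array alone was low. On a linear scale the LPS increase of Mmp3 was 163 signal units under the WT label and 3.91 under the Bid–/– label. The metalloproteinase and TIMP list had 16 of 17 genes at the floor, 12 of them below 0, 2 of them 2-fold or more lower and none 2-fold or more higher, with a median of -0.36.

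Dcn, the collagen-binding proteoglycan decorin, read 5.94, 7.31, 8.09 and 7.44 (-2.02). Its level was higher with LPS than without in WT and lower with LPS than without on the labelled arrays. Sparc, a matricellular glycoprotein, read 6.07, 6.88, 7.33 and 6.86 (-1.28), with the 2 LPS arrays 0.02 apart. The WT control array was also the lowest, and the labelled LPS array lower than its control, for Serpinh1, the collagen chaperone HSP47, at 4.43, 5.18, 5.55 and 4.90 (-1.40), and for the matricellular growth regulators Ccn2, at 6.49, 7.69, 7.60 and 7.25 (-1.55), and Ccn1, at 6.05, 7.01, 7.41 and 7.06 (-1.31). Sfrp4, a secreted Wnt inhibitor, had another layout: it read 2.65, 4.41, 2.83 and 2.73 (-1.86), low on 3 arrays and at the floor on the WT LPS array alone. For Sfrp4, passing the floor and having a lower response are thus not separate facts. Of 45 matrix and matricellular genes 35 were at the floor, 29 of them were below 0, 8 were 2-fold or more lower and none was 2-fold or more higher. Their median difference of response was -0.51, against 0.0 over all genes. The median LPS response of the list was 0.46 in WT and -0.06 on the labelled arrays, and the labels differed by 0.41 without LPS and by -0.02 with it.

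As lists, contractile and S100 genes differed mainly on the LPS arrays. The contractile median difference between labels was 0.03 without LPS and -0.30 with it. On the labelled Bid–/– LPS array, 23 of 27 contractile and 8 of 8 S100 genes at the floor were lower than on the WT one. The count over all genes at the floor was 5398 (47.7%). Among the 8, S100a16 and S100b differed by only -0.02 and -0.05. Single genes also differed without LPS: Tagln, Cnn3, S100a6 and S100a11 were 0.66, 0.60, 0.73 and 0.77 higher on the labelled control array. Tagln, the actin-binding protein transgelin of smooth muscle, read 5.10, 6.70, 5.76 and 5.27 (-2.09). Smooth muscle actin, Acta2, read 6.26, 7.15, 6.75 and 6.25 (-1.39). In both genes the WT LPS array was the highest of the 4. The contractile and cytoskeletal list had 27 of 32 genes at the floor, 22 of them below 0, 3 of them 2-fold or more lower and none 2-fold or more higher, and a median of -0.46. S100a10, a small EF-hand protein that partners annexin A2, read 7.05, 7.78, 7.28 and 6.66 (-1.35), so that LPS and control differed in opposite directions under the labels. S100a6 read 4.47, 5.54, 5.20 and 4.70 (-1.57), and S100a11 read 6.56, 7.42, 7.33 and 6.90 (-1.29). Of 11 S100 genes 8 were at the floor, 7 of them were below 0 and 3 were 2-fold or more lower. Their median of -0.77 went with a median difference between labels of -0.05 without LPS and -0.76 with it.

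Markers of other cell types overlap these lists and in part had low values too. Of 10 fibroblast markers 7 were at the floor, all 7 below 0 with a median of -0.42, and Dcn alone was 2-fold or more lower; Lum, Postn and Ogn were below the floor. The summed linear signal of all 10 was 1177, 1152, 1163 and 932 over the 4 arrays. Most of this sum came from Igfbp4, which read 9.83, 9.45, 9.13 and 8.74 (-0.01), so the sum says little about the other markers. Of the 7 at the floor, 6 were higher with LPS than without in WT and 2 on the labelled arrays. Over all 11326 genes at the floor these counts were 5002 and 4412. Of 10 mural cell markers 5 were at the floor, 4 of them below 0 and 2 (Tagln and Acta2) 2-fold or more lower, and the sum of all 10 was 226, 387, 283 and 263, highest on the WT LPS array. Of the fibroblast markers all but Fbln1 and Pdgfra are also in the matrix list, and Tagln, Acta2, Cnn1 and Des are also in the contractile list. Outside those lists, Fbln1 had -0.36 and Pdgfra -0.42, and the mural markers Kcnj8, Myh11 and Pdgfrb had -0.31, -0.07 and 0.35. Monocyte and border macrophage markers summed to 1446, 1763, 1143 and 1008, with 2 of 3 at the floor below 0. Astrocyte markers were below 0 in 5 of 6 genes at the floor, with a median of -0.24, and endothelial markers in 2 of 4, with a median of 0.03. None of 8 neutrophil markers reached the floor. In RNA of a bulk sample, fewer cells of a type and less RNA per cell cannot be told apart, and the part of these cell types in the result was not tested. Without the protease, matrix, contractile, S100, fibroblast and mural genes, a setting chosen after the values were seen, 55 genes were 2-fold or more lower and 18 higher. This setting only leaves genes out of the count and recalculates no value, so it is no check on other cell types.

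Most cytokines and chemokines had a smaller log2 response on the arrays labelled Bid–/–. The gap had a part on each pair of arrays: 14 of 19 cytokines and 15 of 22 chemokines at the floor were higher on the labelled control array than on the WT one, and 13 and 17 were lower on the labelled LPS array. Over all genes at the floor 51.4% were higher on the labelled control array and 47.7% lower on the labelled LPS array. Cxcl3, a neutrophil-attracting chemokine, read 8.08, 10.95, 9.08 and 10.39 (-1.56). Cxcl1, of the same kind, read 6.06, 10.26, 6.55 and 9.51 (-1.24), and Cxcl5 read 4.49, 6.19, 5.67 and 6.00 (-1.37). The WT control array was the lowest and the WT LPS array the highest in each. Cxcl13, a B cell attractant, read 5.51, 5.79, 6.80 and 5.99 (-1.09), highest on the labelled control array. All 22 chemokines were at the floor, 18 of them below 0, 4 of them 2-fold or more lower and none 2-fold or more higher, with a median of -0.50.

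Among cytokines, Il1a, which encodes interleukin-1 alpha, read 7.52, 11.29, 8.83 and 11.46 (-1.14). Its LPS arrays lay 0.17 apart and its control arrays 1.31 apart. Csf3, the granulocyte growth factor G-CSF, read 3.88, 7.51, 3.96 and 6.58 (-1.01), with control arrays 0.08 apart and a lower labelled LPS array. Both Csf3 control values lay below the floor, so a gap between its control arrays could hardly be read. Its difference of response was past 2-fold in 2 of 5 value settings, with values from -1.01 to -0.81. Il6 read 7.01, 11.48, 7.70 and 11.38 (-0.79), and Il1b read 10.01, 11.78, 10.50 and 11.75 (-0.52). Tnf, the prototype of this response, read 9.42, 12.29, 9.12 and 12.15 (0.16) and so had close to the same response under both labels. Of 21 cytokines 19 were at the floor, 16 of them below 0, 2 of them 2-fold or more lower and none 2-fold or more higher, with a median of -0.51. Their median LPS response was 2.53 in WT and 2.15 on the labelled arrays, and the labels differed by 0.34 without LPS and by -0.10 with it.

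For these inducible genes the sign depends on the scale. Il1a increased by 2320 linear signal units in WT and by 2362 on the labelled arrays, and Serpinb2, the plasminogen activator inhibitor PAI-2, by 804 and 856. Both were thus above 0 on the linear scale (41.6 and 52.5) although their log2 differences of response were -1.14 and -1.30. Serpinb2 read 5.84, 9.75, 7.39 and 10.00, again with the wider gap on the control arrays. The other 87 of the 89 genes kept their sign. Cxcl3, for which the increase was 1708 units in WT and 801 on the labelled arrays, was among them.

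**Figure D3:**
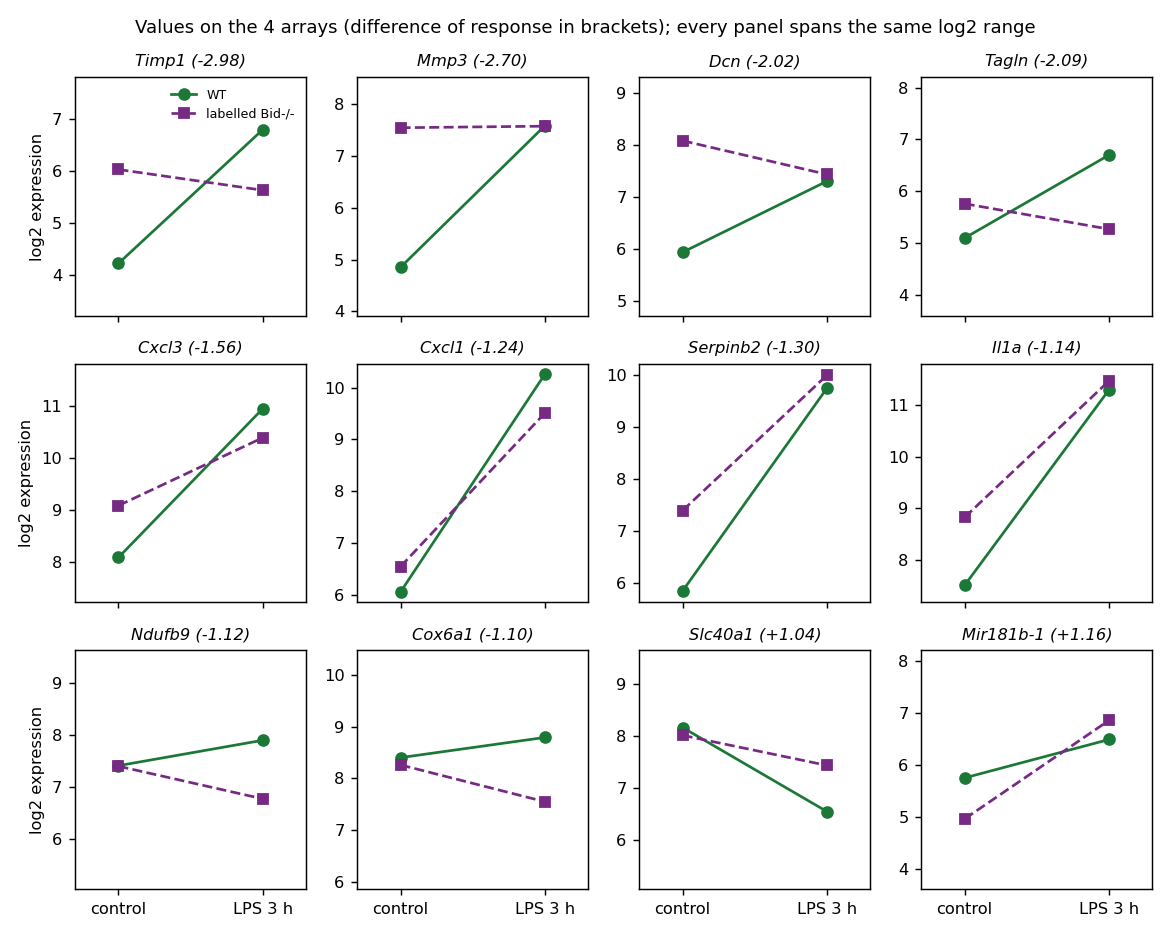
Log2 expression on each of the 4 arrays for genes named in the text, 1 panel a gene, with lines joining control and LPS under each label. Mmp3 is flat under the Bid–/– label, Timp1, Dcn, Tagln, Ndufb9 and Cox6a1 slope down under that label and up in WT, and the 2 lines of Il1a and Serpinb2 nearly meet with LPS. Every point is a single array without an error.

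NF-kB and immediate early genes were spread around 0, while inflammatory enzymes and effectors lay more often below it. Ier3, an immediate early gene, read 7.76, 10.16, 8.72 and 9.96 (-1.16), and was the only one of 27 immediate early and MAPK feedback genes at the floor past 2-fold. Ier3 was past 2-fold in 3 of 5 value settings, with values from -1.16 to -0.98. The list had 14 genes below 0 and a median of -0.10. Among NF-kB subunits and feedback genes, 9 of 19 were below 0 and 9 above, with a median of 0.0 and none past 2-fold. Rel, the c-Rel subunit, read 8.54, 9.92, 8.22 and 10.31 (0.71), and Nfkbiz, a nuclear co-regulator of NF-kB, read 9.22, 10.20, 8.54 and 10.40 (0.88). Both were the lowest on the labelled control array and the highest on the labelled LPS array. Nfkbia, which encodes the inhibitor IkB-alpha, had a difference of response of -0.17 and Tnfaip3, which encodes A20, one of 0.25. Ptgs2, the inducible cyclooxygenase, read 8.99, 11.89, 10.15 and 12.15 (-0.90), while Edn1, the endothelin-1 precursor, read 3.45, 6.93, 3.35 and 7.64 (0.81). Inflammatory enzymes and effectors were below 0 in 17 of 25 genes, with a median of -0.17, and Serpinb2 alone was 2-fold or more lower. TLR4 pathway components had 15 of 22 genes above 0, a median of 0.16 and none past 2-fold.

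When genes were grouped by their mean response over the 2 labels, a grouping chosen after the values were seen, the medians differed between groups. The 15 genes with a mean response of 3 or more had a median of -0.63, and 11 of them were below 0. They were Csf2 (-0.83), Csf3, Cxcl1, Cxcl2 (-0.63), Edn1, Il12b (-0.86), Il1a, Il6, Kdm6b (-0.08), Lif (-0.44), Malt1 (0.12), Nlrp3 (0.10), Serpinb2, Slc7a2 (0.08) and Tnfsf15 (-0.08). The 42 genes with a mean response from 2 to 3 had a median of -0.02, with 21 below 0 and 21 above. The 192 genes from 1 to 2 had 0.01. The 538 genes from 0.5 to 1 lay on the other side, with a median of 0.15, 190 below 0 and 340 above. A mean response between -0.5 and 0.5 was found for 45 of the 71 lower genes (63.4%) and 6 of the 18 higher ones (33.3%), against 9164 of all genes at the floor (80.9%).

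The start regions of a few of the lower genes are shown because they hold the letters of the response elements that LPS signalling uses. The 250 bases before the annotated start, from RefSeq on GRCm38.p6 and written 5′ to 3′ along the gene, follow for Mmp3 (chr9:7445572-7445821, plus strand), Cxcl3 (chr5:90785851-90786100, plus strand), Cxcl1 (chr5:90890995-90891244, plus strand) and Il1a (chr2:129309973-129310222, minus strand). Capitals mark an AP-1 element in Mmp3 and Il1a and an NF-kB match in Cxcl3 and Cxcl1.
Mmp3: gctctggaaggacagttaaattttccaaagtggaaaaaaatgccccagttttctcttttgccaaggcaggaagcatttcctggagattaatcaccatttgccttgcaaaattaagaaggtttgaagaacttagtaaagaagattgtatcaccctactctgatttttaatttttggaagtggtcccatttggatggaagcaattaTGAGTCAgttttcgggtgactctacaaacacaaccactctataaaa
Cxcl3: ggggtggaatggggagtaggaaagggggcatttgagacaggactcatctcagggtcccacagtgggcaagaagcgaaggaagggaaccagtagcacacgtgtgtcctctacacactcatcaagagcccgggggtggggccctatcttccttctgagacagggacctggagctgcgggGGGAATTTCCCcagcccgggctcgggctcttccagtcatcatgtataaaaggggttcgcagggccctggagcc
Cxcl1: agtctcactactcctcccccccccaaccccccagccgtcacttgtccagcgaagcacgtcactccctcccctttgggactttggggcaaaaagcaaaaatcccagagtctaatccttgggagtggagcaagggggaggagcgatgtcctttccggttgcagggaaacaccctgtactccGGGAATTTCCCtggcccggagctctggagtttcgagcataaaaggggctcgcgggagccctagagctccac
Il1a: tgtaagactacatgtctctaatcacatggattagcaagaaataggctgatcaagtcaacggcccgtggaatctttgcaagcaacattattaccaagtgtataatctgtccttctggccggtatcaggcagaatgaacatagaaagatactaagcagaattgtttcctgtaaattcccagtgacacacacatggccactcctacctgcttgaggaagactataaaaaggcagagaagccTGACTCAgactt
The AP-1 letters begin 46 bases before the start in Mmp3 and 12 before it in Il1a. The NF-kB letters begin 73 bases before the start in Cxcl3 and 71 before it in Cxcl1, where they read the same 11 letters. Each of the 2 chemokine stretches contains matches on both strands that overlap.

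Windows of this kind were found for 56 of the 71 lower genes and 9 of the 18 higher ones. The AP-1 element, searched as TGAGTCA or TGACTCA, which are reverse complements and so cover both strands, was in 9 of the 56 (16.1%), against 5.16% of 27025 genes, and in 0 of the 9. Mmp3, Il1a, Mt2, S100a11, F3 and Gstp1 were among the 9. The NF-kB consensus, searched on both strands, was in 6 of the 56 (10.7%) against 4.46%, and in 2 of the 9 (22.2%). It was in 4 of the 20 windows (20.0%) of lower genes that were 2-fold or more higher with LPS in WT: Cxcl1, Cxcl3, Ier3 and Tm4sf1. TATAAA, searched on both strands, was in 10 of the 56 (17.9%) against 14.3%, and the serum response element in 1 (1.79%) against 1.62%. In the same 20 windows the AP-1 element was in 3 (15.0%), TATAAA in 6 (30.0%) and the serum response element in 0. The 27025 genes were all those with a window, not only genes at the floor. These are matches of letters, not measured binding.

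Genes for the ribosome, the respiratory chain and the proteasome had small differences of response that nearly all pointed one way. Of 78 oxidative phosphorylation subunits at the floor, 73 were below 0, 3 were 2-fold or more lower and none was 2-fold or more higher, and the median was -0.59. Ndufb9, a subunit of complex I, read 7.41, 7.90, 7.40 and 6.77 (-1.12). Cox6a1, of cytochrome c oxidase, read 8.40, 8.79, 8.26 and 7.55 (-1.10), and Ndufb8, of complex I, had -1.06. The control arrays of Ndufb9 and Cox6a1 lay close together, while the WT LPS array was the highest and the labelled LPS array the lowest. Sdha and Ndufs1, catalytic subunits of complexes II and I, were exceptions at 0.19 and 0.35.

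Mitochondrial ribosomal proteins were below 0 in 46 of 48 genes, with a median of -0.50, and 2 of them, Mrpl34 (-1.16) and Mrpl36 (-1.02), were 2-fold or more lower. Mrpl34 was past 2-fold in 5 of 5 value settings and Mrpl36 in 2 of 5. Cytosolic ribosomal proteins were below 0 in 33 of 36 genes, with a median of -0.47, and proteasome subunits in 30 of 37, with a median of -0.28. None of those was past 2-fold. Median LPS responses of the respiratory subunits were 0.20 in WT and -0.38 on the labelled arrays. The labels differed by -0.09 without LPS and by -0.71 with it, so the gap sat on the LPS arrays.

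Short genes moved with this pattern. Genes were put into 10 equal groups by gene span, the annotated distance from start to end, and the shortest group (median 1887 bp) had a median difference of response of -0.17. In that group 26 of 1131 genes were 2-fold or more lower and 9 higher. The longest group (median 163892 bp) had 0.15, with none 2-fold or more lower. The median span was 21092 bp over all genes, 5431 bp over the 71 lower and 4936 bp over the 18 higher genes. These sets differ in make-up: 67 of the 71 code for proteins but 11 of the 18. The 18 include 3 microRNA genes and 1 small nucleolar RNA gene, with spans from 68 bp (Mir125a) to 107 bp (Snora30). Lower genes set apart on the control arrays had a median span of 10578 bp, and those set apart on the LPS arrays 3378 bp. With trends on intensity and span removed, 54 genes were 2-fold or more lower and 25 higher. The median of the respiratory subunits was then -0.46, that of the ribosomal proteins -0.27 and that of the matrix genes -0.48, each still below 0. Cytokines then had -0.40, chemokines -0.34, S100 genes -0.595 and the metalloproteinase and TIMP list -0.24. All of these medians were smaller in size than before the step, and that of the housekeeping genes moved from 0.01 to 0.16. The share of higher genes among all those past 2-fold was then 31.6%, against 20.2% without this step.

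**Figure D4:**
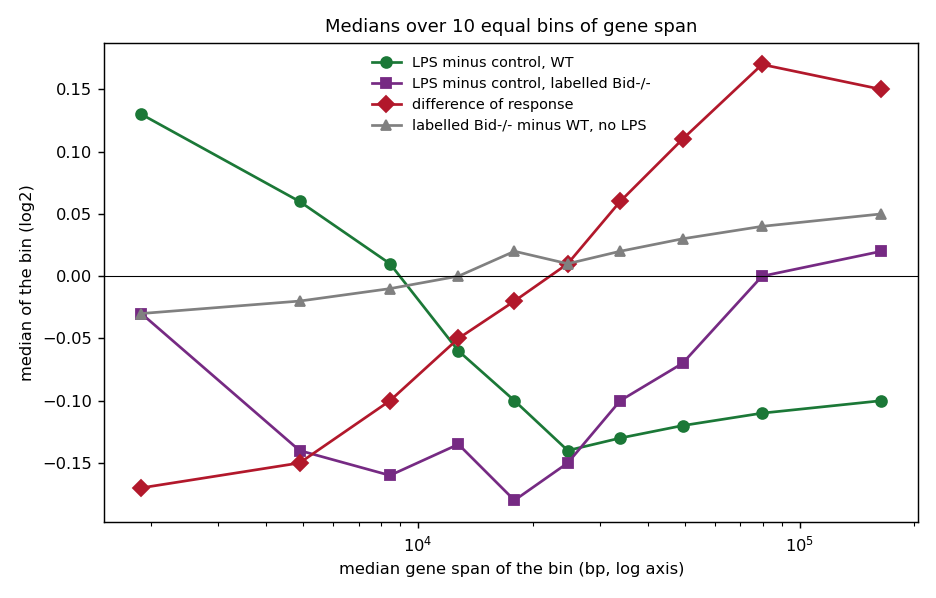
Medians (log2) over 10 equal groups of genes against the median gene span of the group (bp, log axis), for the LPS response in WT, the LPS response under the Bid–/– label, the difference of response, and the difference between labels without LPS. The difference of response goes from -0.17 in the shortest group to 0.15 in the longest, while the difference between labels without LPS stays close to 0.

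**Figure D5:**
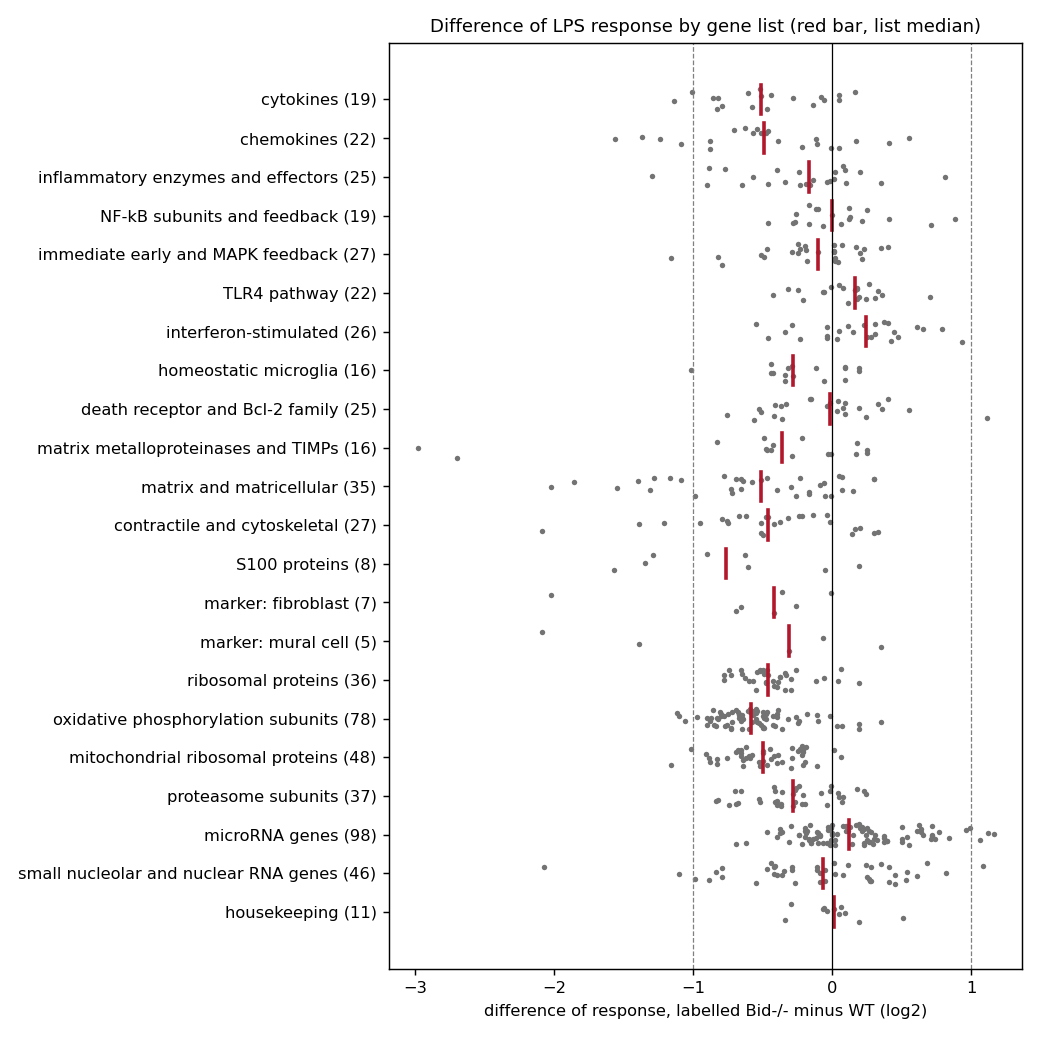
Difference of response (log2) of every gene at the floor, by gene list; points are genes and the red bar is the median of the list. Medians of cytokines, chemokines, matrix, contractile, S100, respiratory and ribosomal genes lie below 0, those of interferon-stimulated and TLR4 pathway genes above 0, and NF-kB genes at 0.0.

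Interferon-stimulated genes tended to values above 0, without any past 2-fold. Of 26 at the floor, 18 were above 0 and 8 below, with a median of 0.24. Mx1, an antiviral dynamin-like GTPase, read 8.23, 6.48, 8.68 and 7.86 (0.93), lower with LPS than without under both labels and by less on the labelled arrays. Mx2, a related GTPase, had 0.79. The list was higher on the labelled arrays by a median of 0.26 without LPS and 0.52 with it. Isg20, an RNA exonuclease, lay on the other side at -0.55.

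Among the genes with a higher response, Nlrc5, a regulator of MHC class I genes, read 8.22, 7.65, 8.56 and 9.17 (1.18), lower with LPS than without in WT and higher on the labelled arrays. It has 19 probe sets, all 19 above 0 with a range from 0.09 to 1.24 and a median of 0.61, and 2 of these were past 2-fold. H2-M2, a nonclassical MHC class I gene, read 4.09, 4.50, 4.22 and 5.70 (1.07), with the labelled LPS array the highest of the 4. Capns2, a calpain small subunit, read 5.59, 6.24, 5.74 and 7.54 (1.15), again highest on that array. Slc40a1, the iron exporter ferroportin, read 8.16, 6.54, 8.01 and 7.43 (1.04), with near-equal controls and a smaller drop with LPS on the labelled arrays. Styx read 7.15, 5.97, 6.94 and 6.81 (1.05), but its 3 probe sets ran from -0.12 to 1.05. Zbtb20, a zinc finger repressor, read 5.27, 4.51, 5.31 and 5.57 (1.02), with its other probe set at 0.34. The highest value of all, 1.71, belonged to 6330407A03Rik, at 7.21, 7.94, 7.03 and 9.47.

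MicroRNA genes were among those with a higher response, and some mature sequences are shown because the genes share a seed or a position. A microRNA seed (bases 2 to 8, in capitals) is the stretch that pairs with target messengers. The sequences and positions are from RefSeq on GRCm38.p6, all on the plus strand: miR-181a-5p at chr1:137966468-137966490, miR-181b-5p at chr1:137966650-137966673, miR-99b-5p at chr17:17830194-17830215, let-7e-5p at chr17:17830366-17830387 and miR-125a-5p at chr17:17830817-17830840.
mmu-miR-181a-5p: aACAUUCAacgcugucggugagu
mmu-miR-181b-5p: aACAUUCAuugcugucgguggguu
mmu-miR-99b-5p: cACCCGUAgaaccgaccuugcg
mmu-let-7e-5p: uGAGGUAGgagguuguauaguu
mmu-miR-125a-5p: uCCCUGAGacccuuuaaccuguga
The 2 miR-181 sequences have the same seed and span 206 bases of chromosome 1, and the other 3 have different seeds and span 647 bases of chromosome 17. These probe sets read the gene region and not the mature form.

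Mir181b-1 read 5.75, 6.49, 4.96 and 6.86 (1.16), and Mir181a-1 read 4.01, 4.09, 3.48 and 4.62 (1.06). Both were lowest on the labelled control array and highest on the labelled LPS array. Mir181a-1 reached the floor on that last array alone, so its passing the floor and its higher response are not separate facts. Same-seed genes elsewhere in the genome had values near 0, with Mir181a-2 at -0.10, Mir181c at 0.00, Mir181d at -0.10 and Mir181b-2 below the floor. Mir125a read 5.45, 5.48, 5.29 and 6.44 (1.12), Mirlet7e read 5.82, 6.47, 5.71 and 7.35 (0.99), and Mir99b read 6.19, 6.75, 6.12 and 7.45 (0.77). The 3 neighbours on chromosome 17 thus shared a high labelled LPS array, which was the highest of the 4 in each. Mir99b and Mirlet7e did not reach 2-fold and are given as neighbours of Mir125a. Among their same-seed genes elsewhere, Mir99a read 4.29, 4.63, 3.73 and 5.03 (0.96), and Mir125b-1 and Mir125b-2 were below the floor. The let-7 genes Mirlet7d (0.65), Mirlet7f-1 (0.50) and Mirlet7i (0.26) were at the floor and also above 0, so values above 0 were not particular to the cluster on chromosome 17. Positions and seeds were looked up after these values were seen. Of 300 microRNA genes 98 were at the floor, 56 of them above 0 and 38 below, with a median of 0.12, and 3 were 2-fold or more higher and none lower.

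Microglial identity genes gave a mixed picture. Trem2, a lipid-sensing receptor of microglia, read 8.18, 8.29, 8.34 and 7.43 (-1.02), and Fcgr3, an Fc gamma receptor, read 7.28, 7.36, 7.71 and 6.69 (-1.10). Both were lowest on the labelled LPS array. Trem2 was past 2-fold in 2 of 5 value settings, with values from -1.07 to -0.93, and Fcgr3 in 5 of 5. Cx3cr1, the fractalkine receptor, was lower with LPS under both labels and had a difference of response of -0.29. Of 19 homeostatic microglia genes 16 were at the floor, 11 of them below 0, with a median of -0.29, which was -0.10 with the intensity and span trends removed. Death receptor and Bcl-2 family genes, among which Bid acts, had 13 of 25 genes below 0 and a median of -0.02, and Bid itself was the only one past 2-fold. Housekeeping genes had a median of 0.01 over 11 genes.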

How the data were processed

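Per the submitters' processing notes the tools were Partek 6.2, Affymetrix Expression Console and robust multi-array average (RMA); their roles are not stated there. The table the authors deposited has a value per probe set and array, from 1.4 to 13.5, taken here as log2 expression; the sources used here do not name the log base. RMA usually equalises the distribution of values between arrays, which hides any change common to all genes. Depth does not apply to arrays: their number limits the precision.

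By the platform annotation 21789 probe sets have 1 symbol, 1621 have several and 5534 have none. Of 999 genes with several probe sets, that with the highest mean was used. The floor, 4.26, is the median over probe sets of the 4-array mean. A difference of at least 1 (2-fold) was counted, and sides were assigned at 1.5-fold. Named genes were the 25 lowest and 20 highest with given names, list extremes, response class extremes and fixed controls. Python 3.11.15 and statsmodels 0.14.6 (lowess, fraction 0.3) were used. The calculation was tested on simulated data with known differences. That test checks the arithmetic and does not show how many 2-fold differences in these arrays arise from noise. Members and lists were chosen with earlier results of these data known.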

Additional observations from a re-analysis of the deposited data

Results flagged for a closer look

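Dcn, Serpinh1 and S100a10 had LPS responses of at least 1.5-fold in opposite directions, higher with LPS in WT and lower on the arrays labelled Bid–/–. Their differences of response were -2.02, -1.40 and -1.35. With 1 array a group these differences were not tested.

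Probe sets with no gene symbol or several were not counted above. Of 7155 such probe sets 2953 reached the floor, and 130 (4.40%) had a difference of response of 2-fold or more, 51 lower and 79 higher on the arrays labelled Bid–/–. Their median was -0.09. Of the 11326 genes with a single symbol at the floor, 71 (0.627%) were lower and 18 (0.159%) higher. The excess of lower over higher values thus held for the single-symbol genes and not for these probe sets.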

How the results depend on the processing

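No paired analysis was possible because each group is 1 array. Counts of lower and higher genes (71 and 18) were 61 and 23 after quantile normalization, 63 and 20 with arrays centred on their medians, 76 and 21 without a floor, 62 and 13 with the floor on all 4 arrays, 54 and 11 with a floor of 6, 77 and 15 with an intensity trend removed, 70 and 14 with probe sets averaged, and 66 and 14 without ribosomal protein, respiratory and small RNA genes. The settings that change the floor or leave out lists only change which genes are counted, and recalculate no value. At 1.5-fold the counts were 686 and 369. With labels required to be 2-fold apart, 23 rather than 38 lower genes were set apart on the LPS arrays alone, and 29 rather than 1 on neither pair. The immediate early list's median of -0.10 became 0.01 with a floor of 6 and 0.01 with probe sets averaged, and Il1a and Serpinb2 were 41.6 and 52.5 on the linear scale; for the list, the causes were not tested. All 71 and 18 genes kept their sign in the settings on the log2 scale that included them, and 45 and 11 stayed past 2-fold in all value settings. The median of all genes moved by 0.03 at most.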

Other observations

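Values here follow the order WT control, WT LPS, then control and LPS under the Bid–/– label, with the difference of response in brackets. Of the 71 lower genes 38 belong to no list, and a few of these follow. Mt2, a zinc-binding metallothionein, read 6.62, 8.51, 7.06 and 7.51 (-1.44). Spic, a macrophage transcription factor of the Ets family, read 6.17, 8.71, 6.82 and 8.27 (-1.09), and Rgs1, a regulator of G protein signalling, read 5.52, 8.68, 6.47 and 8.63, a difference of response at the 2-fold limit. In Rgs1 the LPS arrays lay close together and the control arrays apart, while in Spic the WT LPS array was also the highest. Shisa3, which modulates Wnt and FGF receptors, read 4.42, 7.50, 4.49 and 6.33 (-1.24), with near-equal controls.

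Some structural non-coding RNAs were among the lower genes too. Rmrp, the RNA of the RNase MRP ribonucleoprotein, read 9.40, 10.48, 9.42 and 9.31 (-1.19), with the WT LPS array alone high. Rnu3a, a small nucleolar RNA of ribosomal RNA processing, read 3.51, 5.52, 3.89 and 3.83 (-2.07), reaching the floor on the WT LPS array alone, and n-R5s136, a 5S ribosomal RNA gene, read 8.39, 10.02, 7.74 and 7.77 (-1.60). Near-identical copies of such genes share probes, so which copy was read is uncertain. The WT LPS array was the highest of the 4 in all 3.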
